A study of Mus musculus with 4 samples.

Results

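Notch signalling genes were examined as a set of 10, chosen by name: the receptors Notch1, Notch2, Notch3 and Notch4, the target genes Hes1, Hey1, Dtx1 and Nrarp, and the nuclear partners Rbpj and Maml1. They were taken as every non-control probe whose RefSeq accession maps to one of these symbols, which gave 13 of the 55669 probes and all 10 genes, of 20280 named on the array. Their RNA was measured on 4 one-colour arrays in 2 subsets of lymphoid-primed multipotent progenitors (LMPP), early bone marrow progenitors that can still form lymphoid and myeloid cells. They were IRF8-GFP positive LMPP (2 arrays) and IRF8-GFP negative LMPP (2 arrays), both from knockin mice in which green fluorescent protein reports IRF8, a transcription factor of the monocyte and dendritic cell lineages. Both subsets carried CD117, CD34, CD135 and Sca-1 on their surface and lacked CD150, the IL-7 receptor and markers of mature lineages. Zygosity of the knockin, age, sex and the number of animals are not given in the sources used here, so each p-value here reflects spread among 4 arrays that may be technical.

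Notch receptors span the cell membrane. A ligand on a neighbouring cell triggers cleavage of the receptor by ADAM10 and the gamma-secretase complex, and the released intracellular part enters the nucleus, where it joins the DNA-binding protein RBPJ and a Mastermind coactivator such as MAML1 to switch on genes such as Hes1, Hey1, Dtx1 and Nrarp. Without it, RBPJ recruits corepressors. In blood formation Notch1 is known for committing progenitors to the T lineage, and Notch2 for marginal zone B cells and a subset of splenic dendritic cells.

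Irf8 RNA followed the sort. It had log2 signals, relative to each array's 75th percentile, of 5.13 and 5.22 in positive LMPP, against 1.64 and 1.60 in negative LMPP, 11.7-fold higher (limma adjusted p = 0.000802). Kit, Ly6a (Sca-1), Cd34 and Flt3 (CD135) were well above background on all 4 arrays and Slamf1 (CD150) on none, while Il7r RNA was above background on all 4. Ly6a (log2 difference -0.96, limma adjusted p = 0.00222) and Kit (-0.39, adjusted p = 0.00769) were lower in positive LMPP. Cd34 (0.26, adjusted p = 0.0249) and Flt3 (0.25, adjusted p = 0.0257) were higher, but turned to -0.14 and -0.22 with quantile normalization. Flt3 then passed as lower (adjusted p = 0.0466), as it did in the deposited matrix (-0.23, adjusted p = 0.0448). Signal well above background was seen at 49.96% and 51.0% of spots on the positive arrays, against 56.5% and 56.8% on the negative arrays. The limma fit covered 22362 features (genes, and transcripts without a name), and 59.9% of them had an adjusted p under 0.05. In positive LMPP 38.5% were higher and 21.4% lower, and the median log2 difference was 0.16, so small differences are read against that value. With 2 arrays a group an exact permutation test cannot go below p = 0.333, and the p-values rest on the model fitted across all genes.

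Of the 10 members, 7 passed the filter on dim probes and were tested, and 4 of these passed the threshold, beside 59.9% of all genes. Notch1 (on its brighter probe, while its other probe was higher), Notch3 and Nrarp were lower (3 of 7, beside 21.4% of all genes). Maml1 was higher (1 of 7, beside 38.5%). Notch2, Notch4 and Rbpj did not pass. The groups of 6 of the 7 did not overlap, beside 82.2% of all genes. Of the 10 member probes kept, 6 passed in the fit over all kept probes, beside 57% of those. The median log2 difference of the 7 was -0.34, against 0.16 over all genes. It lay at -0.09 with normexp, at -0.08 with the mean of a gene's probes, at -0.02 over the 5 members that a stricter dim filter kept and at 0.07 over all 10 with no filter. Nrarp and Notch3 passed the filter only through the negative group, so their place among the tested members is not independent of their direction. In bulk RNA of sorted cells, fewer cells with a transcript and less transcript per cell cannot be told apart.

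**Figure D1:**
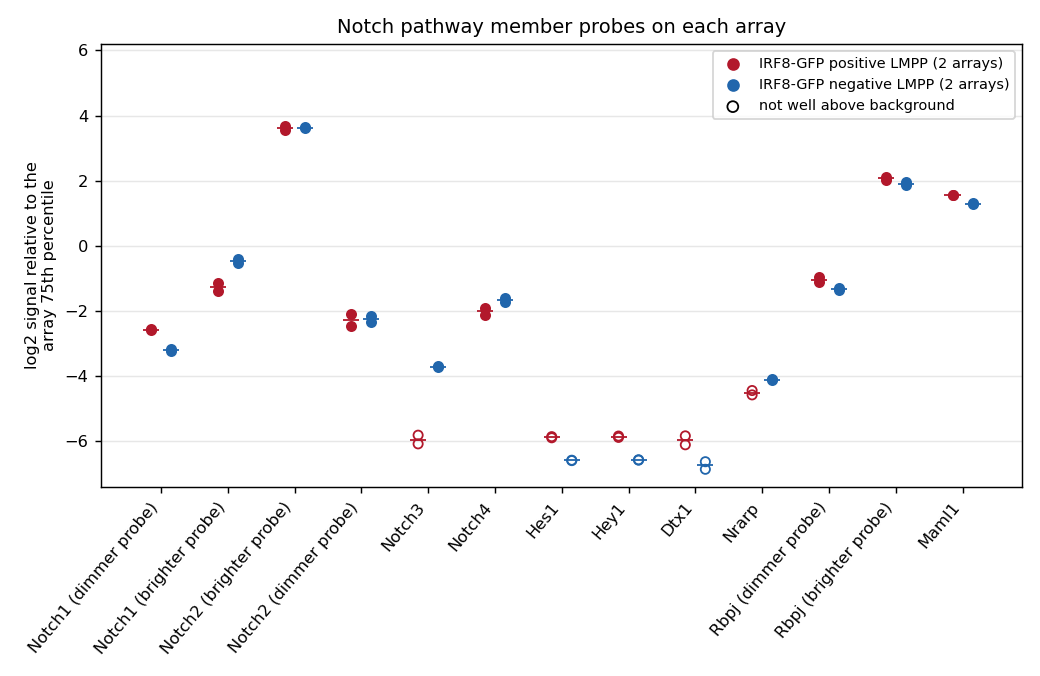
Log2 signal of each member probe relative to the array's 75th percentile on the vertical axis, with IRF8-GFP positive arrays in red left of IRF8-GFP negative arrays in blue, a point per array and a bar at the mean of 2 arrays. Open points were not well above background, which holds for every array of Hes1, Hey1 and Dtx1 and for the positive arrays of Notch3 and Nrarp. Levels are comparable within a probe and not between probes.

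Among the receptors, Notch3 showed the clearest loss of signal. Its processed signal was 4.71 and 7.38 intensity units on the positive arrays, against 33.5 and 41.9 units on the negative arrays. The positive values lay at the level of empty probes, where the lowest signals called well above background were 20.05 and 25.7 units, and both negative values were above background. With these processed signals and the reported scaling, Notch3 was therefore at least 1.23-fold lower in positive LMPP. How far below that bound it lies was not measured. The bound does not hold under every alternative, since the normexp log2 difference of -0.19 was smaller than it. The log2 means were -5.94 ± 0.19 in positive and -3.70 ± 0.01 in negative LMPP (SD, n = 2 each). The limma adjusted p of 0.00147 belongs to that fitted difference of -2.24, whose positive side is background, and not to the bound. The fall kept its direction in all 14 alternatives that tested it, and its call was lost with normexp background correction (log2 difference -0.19, adjusted p = 0.0856). These alternatives reuse the same positive arrays at background, and Notch3 passed the dim filter only through the negative group. They are therefore not independent support for the direction, and the stricter dim filter did not test Notch3.

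Notch1 was read by a pair of probes that moved in opposite directions. The brighter probe had log2 signals of -1.15 and -1.38 on the positive arrays, against -0.52 and -0.42 on the negative arrays. It was 1.73-fold lower in positive LMPP (log2 difference -0.79, SE 0.10, limma adjusted p = 0.00565), and the groups did not overlap. The dimmer probe had -2.58 and -2.56 on the positive arrays, against -3.17 and -3.24 on the negative arrays. Its log2 difference of 0.63 (SE 0.06), 1.55-fold higher, passed over all kept probes (limma adjusted p = 0.00371), again with no overlap and with all 4 arrays above background. The log2 ratio of the brighter to the dimmer probe on the same array, which no scaling of whole arrays can alter, was lower by 1.43 in positive LMPP (SE 0.16, exact permutation p = 0.333, two-sided, the smallest that 2 against 2 arrays allow). Both probes kept their sign and passed under each of the 6 background and scaling settings compared, from -1.10 to -0.60 for the brighter and from 0.32 to 0.73 for the dimmer probe. The mean of the 2 probes had a log2 difference of -0.08 and did not pass (adjusted p = 0.327). No single direction can therefore be given for Notch1 transcript as a whole; both probes carry the same RefSeq transcript accession, and which part of it each one reads was not analysed here.

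Notch2, in contrast, gave nearly the same reading in both groups on both of its probes. The brighter probe had log2 signals of 3.55 and 3.67 on the positive arrays, against 3.61 and 3.65 on the negative arrays, and the groups overlapped. Its log2 difference was -0.02 (SE 0.07, limma adjusted p = 0.822), and the 95% interval over all kept probes, -0.22 to 0.18, bounds what these arrays could have missed under this scaling. The dimmer probe had -2.47 and -2.09 on the positive arrays, against -2.34 and -2.17 on the negative arrays, with a log2 difference of -0.02 (SE 0.16). The brighter probe depended on the scaling: it was lower and passed with cyclic loess (-0.37), spike-in scaling (-0.33), quantile normalization (-0.32) and in the deposited matrix (-0.33). The adjusted p-values there were between 0.0136 and 0.0188. The dimmer probe turned to 0.14 with normexp and to 0.11, 0.10 and 0.02 under quantile normalization, the matrix values and cyclic loess, and lay at -0.33 with spike-in scaling.

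Notch4, a receptor best known from endothelium, had log2 signals of -2.12 and -1.89 on the positive arrays, against -1.73 and -1.60 on the negative arrays. Both positive arrays lay below both negative arrays. The log2 difference of -0.34 (SE 0.11) did not pass (limma adjusted p = 0.0539). Its sign held under all 15 alternatives, with values from -0.65 with spike-in scaling to -0.13 with normexp, and it passed under 5 of them, among them without positive replicate 2 (adjusted p = 0.0245) and with the experiment number of the labels as a replicate block (adjusted p = 0.0235).

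**Figure D2:**
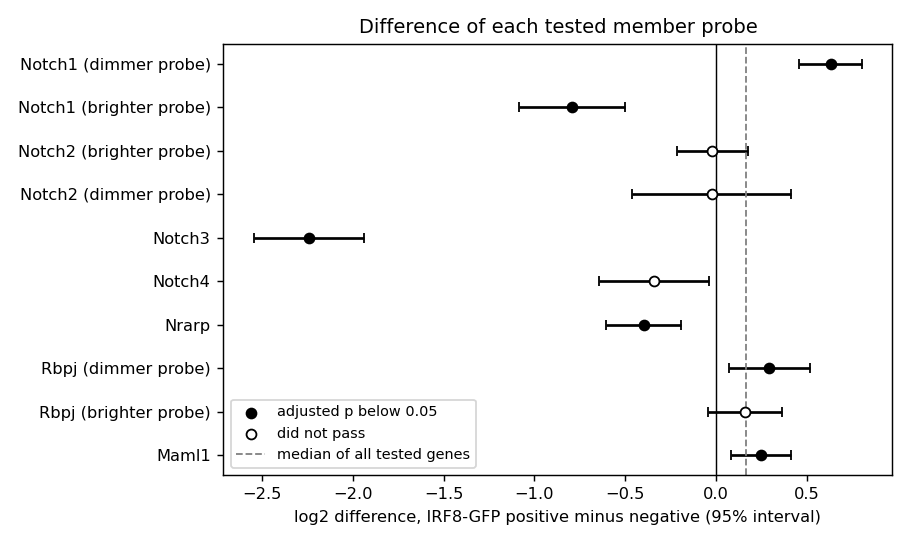
Log2 difference (positive minus negative) of the 10 member probes that passed the filter on dim probes, with the 95% interval of the fit over all kept probes, and filled points where the adjusted p was below 0.05. The dashed line is the median of all tested genes, 0.16. The Notch1 probes lie on opposite sides of 0 at -0.79 and 0.63, and the Notch3 value of -2.24 is set by a positive group at background.

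The target genes gave little signal in either subset. Hes1, a transcriptional repressor and the classical Notch target, had processed signals of 5.49 and 6.98 units on the positive arrays, against 4.58 and 5.63 units on the negative arrays. Hey1, a related repressor, had 5.56 and 7.04 units on the positive arrays, against 4.62 and 5.68 units on the negative arrays. Dtx1, which encodes the E3 ligase Deltex1, had 4.62 and 7.27 units on the positive arrays, against 4.44 and 4.68 units on the negative arrays. None of the 3 was well above background on any of the 4 arrays, so none was tested and no fold is given. Their values lay close to the median of the 23130 probes that were above background on no array, which was 5.23 and 6.77 units on the positive arrays and 4.59 and 5.55 units on the negative arrays. After scaling to the 75th percentile those empty probes had a median log2 difference of 0.69, and Hes1, Hey1 and Dtx1 had 0.71, 0.71 and 0.77. With no filter on dim probes the 3 genes pass as higher in positive LMPP (adjusted p between 0.00519 and 0.0282), a call made at the level of the empty probes.

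Nrarp, which encodes a small ankyrin repeat protein that is induced by Notch and limits it, was the 1 of the 4 target genes above background, in the negative subset alone. Its processed signal was 14.7 and 17.4 units on the positive arrays, not well above background, against 25.8 and 31.0 units on the negative arrays. The log2 means were -4.51 ± 0.09 in positive and -4.11 ± 0.03 in negative LMPP (SD, n = 2 each), a difference of -0.40 (SE 0.07, limma adjusted p = 0.0133). After scaling, the negative values lay below the detection limit of the positive arrays, so no bound of the fold can be given. The call was lost without negative replicate 1 (adjusted p = 0.0787), without negative replicate 2 (0.068), with cyclic loess (0.0684) and with a trended robust variance (0.202). With normexp the sign turned (0.24, adjusted p = 0.051).

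**Figure D3:**
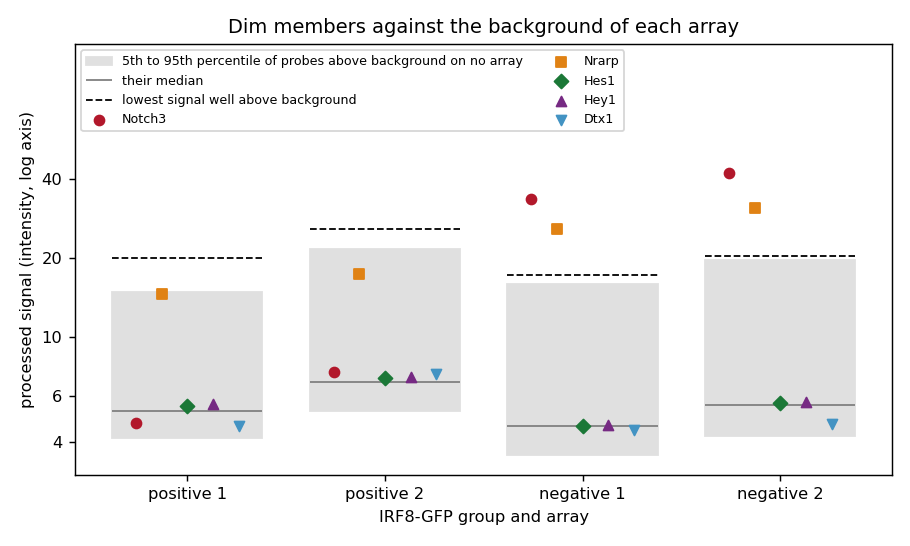
Processed signal (intensity, log axis) of Notch3, Nrarp, Hes1, Hey1 and Dtx1 on each array, with positive arrays left of negative arrays. Grey boxes span the 5th to 95th percentile of the 23130 probes above background on no array, the grey line is their median and the dashed line the lowest signal called well above background. Hes1, Hey1 and Dtx1 lie near the grey line on every array, and Notch3 reaches 33.5 and 41.9 units on the negative arrays alone.

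The nuclear partners were well measured and moved little. Rbpj, the DNA-binding factor on which the pathway converges, had log2 signals of 2.02 and 2.12 on the positive arrays, against 1.87 and 1.96 on the negative arrays, for its brighter probe. The log2 difference of 0.16 (SE 0.07, limma adjusted p = 0.125) equalled the median of all genes and did not pass, and it turned to -0.02 with quantile normalization and in the matrix values, -0.06 with cyclic loess and -0.15 with spike-in scaling. Its dimmer probe had -1.12 and -0.96 on the positive arrays, against -1.37 and -1.30 on the negative arrays, and passed (0.29, SE 0.08, adjusted p = 0.0397 over all kept probes), but lay at -0.01 with spike-in scaling. Processed pseudogenes of Rbpj are annotated in the mouse, and signal from them was not separated. Maml1, the Mastermind coactivator, had 1.55 on both positive arrays, against 1.33 and 1.27 on the negative arrays. It passed with a log2 difference of 0.25 (SE 0.06, adjusted p = 0.0236), 0.09 above the median of all genes. That call was lost without any 1 of the 4 arrays (adjusted p between 0.066 and 0.132), with quantile normalization (0.13) and with cyclic loess (0.09), and the sign turned with spike-in scaling (-0.06).

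**Figure D4:**
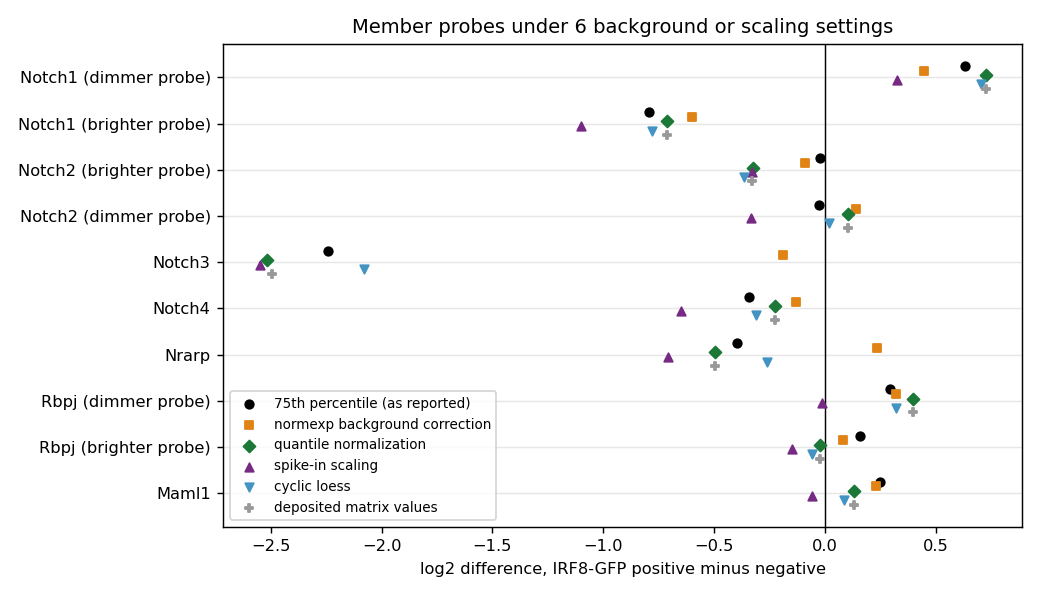
Log2 difference (positive minus negative, horizontal axis) of the 10 tested member probes under 6 background or scaling settings, a symbol per setting. The Notch1 probes stay on their own sides of 0, Notch3 moves from -2.55 with spike-in scaling to -0.19 with normexp, and Rbpj, Maml1, Notch2 and Nrarp cross 0.

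Promoter sequence is shown for the 3 members whose brightest probe was called lower and for Rbpj, because pathway members can be targets of RBPJ or of Hes repressors. The windows are RefSeq's for GRCm38.p6, which held 8 of the 10 members (Hes1 and Hey1 were not among them), with 300 bases each, 250 of them before the start site. Searches covered both strands for the RBPJ core TGGGAA, its longer form GTGGGAA, the N box CACNAG that Hes proteins bind, and the interferon-type motif GAANNGAAA. Across all 32851 promoter windows 25.6%, 6.38%, 42.5% and 7.52% held them. The longer form contains the core and is counted under both. Of the 8 members with a window, only Rbpj held the core, at 149 bases before its first start site on the given strand and at 65 bases before it on the opposite strand, and none held the longer form or the interferon-type motif. The N box was found in Notch1, Notch2, Notch3, Dtx1 and Nrarp. The first 260 bases are printed in the direction of transcription, with capitals for each RBPJ core or N box, whichever strand it is on. The stretches are chr2:26503813-26504072 (minus strand) for Notch1, chr17:32166881-32167140 (minus strand) for Notch3, chr2:25180508-25180767 (plus strand) for Nrarp and chr5:53590096-53590355 (plus strand) for Rbpj.
Notch1: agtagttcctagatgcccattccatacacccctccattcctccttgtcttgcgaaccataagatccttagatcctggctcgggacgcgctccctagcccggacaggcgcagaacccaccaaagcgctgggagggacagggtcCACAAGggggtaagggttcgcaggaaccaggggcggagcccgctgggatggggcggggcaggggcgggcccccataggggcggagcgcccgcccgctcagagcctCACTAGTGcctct
Notch3: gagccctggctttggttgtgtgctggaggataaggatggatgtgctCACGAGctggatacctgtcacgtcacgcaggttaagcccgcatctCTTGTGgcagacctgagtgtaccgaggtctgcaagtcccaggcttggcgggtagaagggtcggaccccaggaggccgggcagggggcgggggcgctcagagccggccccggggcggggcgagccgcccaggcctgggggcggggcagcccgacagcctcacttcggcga
Nrarp: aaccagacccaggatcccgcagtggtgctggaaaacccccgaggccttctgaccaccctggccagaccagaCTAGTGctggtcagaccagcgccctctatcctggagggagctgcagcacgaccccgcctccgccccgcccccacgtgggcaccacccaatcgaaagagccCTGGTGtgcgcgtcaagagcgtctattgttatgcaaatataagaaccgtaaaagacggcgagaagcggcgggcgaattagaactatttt
Rbpj: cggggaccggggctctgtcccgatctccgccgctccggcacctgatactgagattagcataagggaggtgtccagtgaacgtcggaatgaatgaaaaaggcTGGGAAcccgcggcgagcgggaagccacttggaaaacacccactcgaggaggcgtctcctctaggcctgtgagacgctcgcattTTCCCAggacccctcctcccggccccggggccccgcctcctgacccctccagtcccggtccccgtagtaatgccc
In Notch1 the capitals at the start site are a pair of overlapping N boxes on opposite strands. Notch3 and Nrarp hold 2 N boxes each, and neither holds an RBPJ core in this window. A match describes these letters and shows neither binding nor a link to the measured differences.

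Around the 10 members, a wider list of 85 pathway genes had 82 with a probe, of which 68 were tested: 23 were higher, 15 were lower and 30 did not pass, beside 38.5% higher and 21.4% lower over all genes. Their median log2 difference was 0.14, against 0.16 over all genes. Of these calls 9 higher and 9 lower kept their sign and passed under all 15 alternative fits in which the gene was tested. Several small positive differences lie near the median of all genes and turn with the scaling.

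Of the genes for ligands, Dll1, Dll4, Jag1 and Dner were well above background on no array and were not tested. Dll3 (0.41) and Jag2 (-0.19) did not pass. Dll3 did pass as higher with the replicate block (adjusted p = 0.0143), normexp (0.0193) and the stricter dim filter (0.0468). Jag2 passed as lower with spike-in scaling (-0.50, adjusted p = 0.00668). Dlk1, an imprinted ligand-like protein that lacks the domain by which canonical ligands bind Notch, had log2 signals of -2.22 and -2.32 on the positive arrays, against -1.04 and -1.11 on the negative arrays. It was 2.29-fold lower (log2 difference -1.20, SE 0.07, limma adjusted p = 0.00173), and its other probe was at least 1.07-fold lower, with the positive arrays not well above background. Of 6 genes for ligand endocytosis, 3 were higher and 2 lower. The Neuralized family members Neurl3 (-0.995) and Neurl2 (0.83) moved in opposite directions, the ligase gene Mib2 fell (-0.42), and Neurl1b passed at 0.44 but lay at -0.04 with quantile normalization.

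Genes that modify or cut the receptors changed little on their brightest probes. Of 7 for receptor glycosylation, 3 were higher and 1 lower: the glucosyltransferase genes Poglut2 (0.36) and Poglut1 (0.31) and the Fringe gene Rfng (0.19) passed as higher, and the Fringe enzyme Mfng fell by 0.33 (SE 0.06, adjusted p = 0.0122), on both of its probes. With spike-in scaling Poglut1 lay at 0.002 and Poglut2 at 0.05, and neither passed. Poglut1 also lost its call with quantile normalization (adjusted p = 0.0509) and cyclic loess (0.0643). The other probe of Poglut2 lay at 0.13, and the mean of its probes did not pass (adjusted p = 0.189). The other probe of Rfng lay at -0.10, and Rfng itself at -0.12 with quantile normalization and short of the threshold with the replicate block (adjusted p = 0.0545). The Mfng call was lost without negative replicate 1 (adjusted p = 0.0747) or 2 (0.0762). Of 8 tested for cleavage, 2 were higher and 2 lower, with Psenen (0.29) and the protease gene Adam10 (0.25) passing as higher. Aph1b (-0.28), which like Psenen encodes a gamma-secretase subunit, and Furin (-0.23), whose product cuts the receptor before it reaches the surface, passed as lower. Psenen and Adam10 turned to -0.11 and -0.06 with quantile normalization. Both Aph1b probes passed in the fit over all kept probes, and the dimmer lay at -1.17 (limma adjusted p = 0.00226). Aph1a did not pass on its brighter probe (0.0003), while its dimmer probe was higher (0.48, limma adjusted p = 0.00976). Furin lost its call with the replicate block (adjusted p = 0.0551), with no dim filter (0.0545) and without 3 of the 4 arrays in turn (0.119 to 0.162), and Aph1b with normexp (0.177) and without 3 of the 4 arrays (0.0742 to 0.115). Aph1b has a close paralogue, Aph1c, and signal of the 2 was not separated.

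The largest change in the wider list was that of Dtx4, a Deltex family E3 ligase and paralogue of Dtx1. It had log2 signals of 3.59 and 3.63 on the positive arrays, against 0.71 and 0.75 on the negative arrays. Dtx4 was 7.36-fold higher in positive LMPP (2.88 on the log2 scale, SE 0.06, limma adjusted p = 0.000802), ranking 44 among 22362 by increase, and it passed under all 15 alternative fits. The paralogues differed in direction. Dtx2 was higher (0.51), although not with cyclic loess (0.16, adjusted p = 0.0793), Dtx3 was 1.85-fold lower (-0.89, SE 0.06, adjusted p = 0.0019), and Dtx3l (0.19) did not pass. Of 11 genes for receptor turnover, 2 were higher and 4 lower, among them Numbl (-0.55), a relative of the Notch inhibitor Numb, which lay at -0.03 and did not pass.

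In the nucleus, 2 of 7 coactivator genes were higher and 2 lower. Maml2, a paralogue of Maml1, fell by 0.61 (SE 0.07, adjusted p = 0.0041) on its brighter probe, while its other probe lay at 0.10. The acetyltransferase genes Kat2a (0.35) and Kat2b (-0.31) passed in opposite directions, Snw1 (0.29) passed as higher, and all 3 lost the call with quantile normalization, while Snw1 turned to -0.02 with spike-in scaling. Of 15 corepressor genes 5 were higher, 1 was lower and 9 did not pass. The lower one was Tle2, a Groucho family corepressor, with log2 signals of -0.15 and 0.07 on the positive arrays, against 1.36 and 1.42 on the negative arrays, a 2.70-fold fall (-1.43, SE 0.09, adjusted p = 0.00194). L3mbtl3, which recruits a demethylase to RBPJ, was 1.81-fold higher (0.85, SE 0.05, adjusted p = 0.00187) and Hdac2 rose (0.59), while Ctbp1 passed at 0.39 and turned to -0.10 with quantile normalization. With that normalization 2 corepressor genes were higher and 5 lower.

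Of 4 other Hes and Hey genes tested 2 were higher and none lower, and further reported targets passed in both directions. Hes6, which opposes Hes1 in other tissues, had log2 signals of 4.40 and 4.39 on the positive arrays, against 3.55 and 3.56 on the negative arrays, 1.79-fold higher (0.84, SE 0.05, adjusted p = 0.00187). Hes2 passed at 0.52 but not with spike-in scaling (0.21), Hes5 (0.06) and Hes7 (0.14) did not pass, and Hes3, Hey2, Heyl and Helt were not above background. Of 7 further targets tested, 4 were higher and 2 lower. Il7r (2.40), Cdkn1a (1.73), which encodes the cell cycle inhibitor p21, and Ccnd1 (0.94), which encodes cyclin D1, rose. Gata3, a T lineage transcription factor, had log2 signals of -1.83 and -1.85 on the positive arrays, against 0.20 and 0.23 on the negative arrays, 4.17-fold lower (-2.06, SE 0.05, adjusted p = 0.000859). The T lineage genes Tcf7 and Bcl11b and the direct pre-T cell targets Il2ra and Ptcra were not tested, since none was well above background on both arrays of a group.

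**Figure D5:**
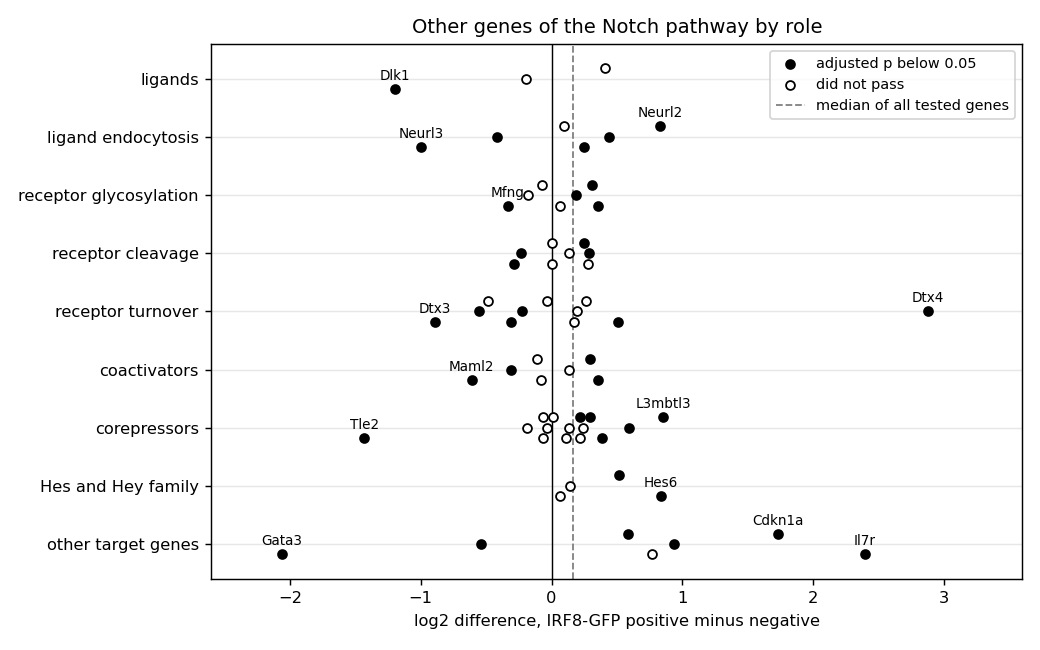
Log2 difference (positive minus negative, horizontal axis) of the tested genes of the wider Notch pathway, a row per role and a point per gene, filled where the limma adjusted p was below 0.05. The dashed line is the median of all tested genes, 0.16. Dtx4 (2.88) lies farthest to the right and Gata3 (-2.06) farthest to the left.

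Markers of other cells moved with the sort beside these values. Their counts stand beside 38.5% of all genes called higher and 21.4% called lower. Of 11 tested stem cell markers 9 were lower and none higher, with a summed linear signal, in units of each array's 75th percentile, of 29.97 to 31.4 on the positive and 83.6 to 86.7 on the negative arrays. Of 11 megakaryocyte and erythroid markers 9 were lower (5.95 to 5.97 on the positive and 20.5 to 21.5 on the negative arrays). Of 12 endothelial markers 8 were lower and 3 higher (197 to 200.1 on the positive and 153 to 159 on the negative arrays), and the defining Cdh5 and Sox17 were above background on no array. Egfl7, with log2 signals of 7.44 and 7.49 on the positive and 7.07 and 7.02 on the negative arrays, made up most of that sum. Tek, Cldn5 and Flt1, like Mecom and Hoxb5 among the stem cell markers, passed the dim filter only through the negative group. Their direction is therefore not independent of the filter. With the stricter dim filter 5 of 9 endothelial markers were lower and 3 higher, with a median log2 difference of -0.31, against -1.04 as reported. That filter kept 8 stem cell markers, of which 7 were lower. With normexp Tek (-0.05), Flt1 (0.05) and Hoxb5 (-0.12) did not pass. Of 7 stroma markers 4 were lower and none higher (8.97 to 9.73 on the positive and 8.76 to 9.06 on the negative arrays). They were Postn, at least 2.73-fold lower, Col1a2 (-0.54), Cxcl12 (-0.49) and Sparc (-0.37). Postn passed the dim filter only through the negative group, with its positive arrays not well above background. Cxcl12 did not pass with the replicate block (adjusted p = 0.0765). With normexp 2 stroma markers passed as higher, Lepr (0.30) and Col1a1 (0.27), and 1 as lower. Col1a2 (-0.15), Cxcl12 (-0.08) and Sparc (-0.15) did not pass there. Of 11 monocyte and dendritic cell markers 8 were higher and 2 lower (222 to 244 on the positive and 131 to 181 on the negative arrays). Siglech, the brightest of them, carried a large share of that sum. Its log2 means were 6.69 in positive and 6.88 in negative LMPP, and it did not pass (limma adjusted p = 0.501). The other Siglech probe was at least 5.78-fold higher, with the negative arrays not well above background. The 2 lower markers were Cd74 (-0.49) and Itgam (-0.52 on its brightest probe). Clec9a, among the 8 called higher, passed the dim filter only through the positive group, so its direction is not independent of the filter. With the stricter dim filter 7 of 10 monocyte and dendritic cell markers were higher and 2 lower. Some genes, among them Esam, Tie1 and Vwf, stand on 2 of these lists each. The part of these cell types in the Notch3, Notch1, Dlk1 or Dtx4 differences was not tested.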

How the data were processed

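Per the labels' protocols, LMPP were enriched on magnetic columns, sorted by flow cytometry, and total RNA was Cy3-labelled with a kit for small inputs. Per the file headers, the authors read 4 arrays of 1 slide, scanned on 1 day, with Agilent Feature Extraction 10.7.3.1; the deposited processed intensity had background and spatial trend removed, with no normalization across arrays. The deposited matrix holds linear intensity values, quantile normalized by the authors judging from its equal sorted columns (median 31.9 in each); its centring is not known. Flags for background, saturation and outliers (other) were deposited in the same files.

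Control and outlier spots were left out (12 of 55681 probes were lost; 0 spots were saturated), spots were averaged, log2 was taken and each array's 75th percentile subtracted. The dim filter kept 30478 probes, those called well above background (a share of spots of 0.5 or more) on each array of either group. Accessions were matched without version to RefSeq symbols of GRCm38.p6, which named 26756 probes with 1 symbol and left 28913 unnamed. A gene is its brightest kept probe. limma 3.58.1 (lmFit, eBayes) in R 4.3.3 compared positive minus negative over 22362 genes, two-sided, with Benjamini-Hochberg adjustment and a threshold of 0.05; probes were fitted over all kept probes. A bound ("at least N-fold") sets the brighter group's mean against the dimmer group's mean of, per array, the higher of its own value and the lowest signal well above background. Such bounds apply to the reported background and scaling only. The number of arrays limits the precision.

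Members and gene lists were chosen with earlier results of these data known. Named are all members, Irf8, the genes of the sorting gate, up to 4 called genes with the largest change of each list, and further list genes, picked after their values were seen, as examples of what did not pass. Alternatives tried were a replicate block, leaving out 1 array in turn, normexp (offset 50, on median signals), quantile normalization, scaling on 7 spike-in probes, cyclic loess, median centring, the deposited matrix, no or a stricter dim filter, a trended robust variance, the mean of a gene's probes, and an adjusted p of 0.01.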

Additional observations from a re-analysis of the deposited data

How the results depend on the processing

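The 4 called members (1 higher, 3 lower) and 13390 called genes were recounted under the alternatives tried. Leaving out 1 array in turn gave 2 to 4 members called, 0 higher and 2 to 4 lower, and 7612 to 12774 genes called; the lowest gene counts were those without negative replicate 1 (7612) and without negative replicate 2 (7723). No member was called higher with quantile normalization (0), in the deposited matrix (0), with cyclic loess (0), with spike-in scaling (0, and 5 lower) or at an adjusted p of 0.01 (0, with 2 members and 7861 genes called). Normexp called 2 members, 1 of them lower. No filter on dim probes called 7 members, 4 of them higher, of which 3 lie at background, and a trended robust variance called 2 higher. Brightest-probe differences turned sign for Notch2 without negative replicate 2 (0.0023) and without positive replicate 1 (0.039; range over the 4 omissions -0.078 to 0.039), for Nrarp with normexp (0.24), for Maml1 with spike-in scaling (-0.058), and for Rbpj with quantile normalization (-0.020), the matrix (-0.022), cyclic loess (-0.057) and spike-in scaling (-0.15). Notch1, Notch3 and Notch4 turned sign under none of the alternatives that tested them. Higher calls made up 64.3% of all calls as reported, 52.6% with quantile normalization, 52.4% in the matrix, 49.1% with cyclic loess, 28.9% with spike-in scaling, 73.6% with normexp and 76.9% with no filter. The labels number the arrays by experiment, without saying that same-numbered arrays were prepared together, and 2 pairs cannot settle it: same-numbered arrays had a correlation of deviations of 0.10 over genes. The replicate block gave 5 members called, 4 lower, with Notch4 passing (adjusted p = 0.0235), and 13946 genes. The causes of these changes were not tested. Dim signals limit Notch3, Nrarp, Hes1, Hey1 and Dtx1.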

Other observations

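T cell markers, of which Cd3e is also on the wider Notch list, had no common direction. Of the 8 tested 3 were higher and 3 lower in positive LMPP, beside 38.5% and 21.4% of all genes. The costimulatory receptor gene Cd28 (log2 difference 1.87), the kinase gene Zap70 (0.97) and Cd5 (0.70) were higher, and the adaptor gene Lat (-1.23), Thy1 (-0.89) and the kinase gene Lck (-0.20) were lower. The T cell receptor complex genes Cd3d and Cd3g, and Cd8a, Cd8b1 and Cd2, were above background on no array, while Cd3e was (0.77, limma adjusted p = 0.137). With the replicate block Cd3e passed (adjusted p = 0.0233) and Lck did not (0.052). Of 6 tested B cell markers 3 were higher and 1 was lower, led by the adaptor gene Blnk (1.72) and the surrogate light chain gene Vpreb1 (0.74). Ebf1, Igll1 and Ms4a1 were above background on no array.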
